A study of Homo sapiens with 6 samples.

Results

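The axon guidance family described here holds the semaphorins, ephrins, netrins, SLITs and repulsive guidance molecules with their plexin, neuropilin, EPH, UNC5, DCC, neogenin and ROBO receptors. Its members were chosen by gene symbol, and the family was put forward because UNC5B, a netrin receptor, was lower in RAC3-overexpressing cells in the comparison reported here. UNC5B was therefore selected on the readout, and its values are given as a description without a test. EFNA1 had also been listed among the lower genes in earlier results of these data, and its values are likewise given without a test. The symbol rule took 74 of the 20332 genes of the table, 73 of them besides UNC5B, whatever their values. It also took UNC50, a membrane protein that is not a guidance receptor, and UNC5CL, a signalling protein with a death domain that resembles the UNC5 receptors. Of the neuropilins the rule took NRP2 and not NRP1, and the netrin-G genes were left out.

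The study asked how the transcriptome of Huh-7 cells, an established human hepatocellular carcinoma line, differs when the small GTPase RAC3 is stably overexpressed. Lentivirus was used to make the overexpressing cells, and poly(A) RNA from 3 such samples was sequenced with RNA from 3 negative controls, whose genotype label is WT. The genotype labels of RAC3 samples 2 and 3 name RAC4 and RAC5, whereas their titles and the study name RAC3. The sources used here do not say whether the stable cells are 1 clone, which promoter drives RAC3 or what the negative controls carry. The counts assigned to genes summed to 14368764, 15269997 and 18199888 in negative controls 1, 2 and 3, and to 17332318, 16225766 and 13855762 in RAC3 samples 1, 2 and 3.

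Axon guidance cues are secreted or membrane-bound ligands that attract or repel growing axons, and the same proteins steer migrating cells, vessels and epithelia outside the nervous system. Many guidance receptors act on the cytoskeleton through small GTPases, and RAC3 is a small GTPase. UNC5 receptors and DCC are also called dependence receptors, because they can trigger cell death when their netrin ligand is missing.

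Levels of a gene across samples are given as counts per 1000000 counts (CPM), scaled by the trimmed mean of M values (TMM). Levels of different genes are compared as FPKM, fragments per kilobase of transcript per 1000000 fragments. Only the top gene of each marker list was taken by CPM, which does not allow for transcript length. Fold changes are given as log2 of RAC3 overexpression over negative control with the standard error (SE), so that a negative value means a lower level with RAC3. A gene was called higher or lower at an edgeR p-value, adjusted over all 12941 tested genes by the Benjamini-Hochberg method, below 0.05. With 3 samples against 3, an exact two-sided permutation test of a single gene cannot go below 0.10. The supplementary methods call the RNA samples independent without saying whether they came from separate cultures, so the p-values measure the spread between these RNA samples.

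The RAC3 level checked the group labels first. RAC3 stood at 35.6, 31.4 and 32.8 CPM in negative controls 1, 2 and 3 and at 233, 239.6 and 225 CPM in RAC3 samples 1, 2 and 3. All 3 RAC3 samples, including the pair with RAC4 and RAC5 in their genotype label, lay far above all controls. Cell type markers were checked next. All 14 hepatocyte or liver cancer genes listed passed the filter on low counts, and their summed level was 6849, 6870 and 6911 CPM in the controls and 6738, 6182 and 6343 CPM with RAC3. Albumin (ALB) had the highest CPM of them. Of the 14, 3 were called higher and 6 lower, beside 13.3% higher and 15.3% lower of all tested genes. Of 6 endothelial markers only PECAM1 was tested, and TEK and ROBO4 had 0 counts in all samples. Of 7 neuronal markers 4 were tested, with the highest CPM for the tubulin TUBB3 and the neuronal nuclear protein RBFOX3 at 0 counts in all samples. The neuronal and the endothelial list had 0 genes called by edgeR, DESeq2 or limma-voom in either direction, with 1 neuronal gene lower at an unadjusted p below 0.05. Of 7 fibroblast or stellate markers 5 were tested, edgeR called 2 higher and 1 lower, DESeq2 called 2 higher and 0 lower, and lumican (LUM) had the highest CPM. The summed level of the fibroblast list was 233, 243 and 249 CPM in the controls and 285, 273 and 280 CPM with RAC3, and the part of this shift in the results below was not tested. Of 6 leukocyte markers only CD68 was tested, which edgeR and limma-voom called higher and DESeq2 did not, and TYROBP was at 0 counts in all samples.

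Ligand genes called lower with RAC3 were EFNA3, EFNA4, SEMA3B, SEMA3F, SEMA4B, SEMA4G, SEMA5B and SEMA6B, and NTN4 and SEMA6A were called higher. Receptor genes called lower were PLXNA1, PLXNB2, PLXND1, EPHA1, EPHA2 and EPHB4, and EPHA5 and NRP2 were called higher, as was UNC50. The log2 fold changes of the lower genes ran from −1.74 for EFNA3 to −0.19 for PLXNB2, and those of the higher genes from 0.22 for UNC50 to 0.63 for EPHA5. Of the 74 members, 54 passed the filter and were tested. Of the 20 not tested, 7 had 0 counts in every sample: EFNB1, ROBO4, EPHB1, UNC5D, SLIT3, EFNA5 and the readthrough transcript EFNA4-EFNA3. The other 13 had at most 10 counts in any sample. A count of 0 allows a level of up to 0.167 to 0.215 CPM, depending on the depth of the sample and for counting error only. These are bulk samples, in which fewer cells of a kind and less RNA per cell cannot be told apart.

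Without UNC5B and EFNA1, 52 tested members remain. By adjusted p, 5 of them (9.62%) were called higher, where 13.3% of all tested genes were, and 14 (26.9%) were called lower, where 15.3% of all tested genes were. Scaling by library size gave 8 higher, where 20.2% of all tested genes were higher. With limma on log2 FPKM 9 were lower, where 6.63% of all tested genes were lower. The median log2 fold change of the 52 was −0.14, beside 0.0036 over all tested genes. With UNC5B and EFNA1 included the median was −0.165. It was then −0.109 with scaling by library size, −0.106 without RAC3 sample 1, −0.101 with a GC trend removed and −0.0919 with limma on log2 FPKM. Medians over all tested genes in these fits were 0.0601, 0.0011, 0.0033 and 0.0536, in the same order. By the thresholds of the study, a fold change above 1.5 with an unadjusted p below 0.05, 1 of the 52 (1.92%) was higher beside 1.68% of all tested genes, and 6 (11.5%) were lower beside 2.99%. All 3 RAC3 samples lay below all 3 controls for 19 of the 52, and 21.6% of all tested genes had this pattern. They lay above all 3 controls for 8 of the 52, and 20.9% of all tested genes did so. Since the choice of the family drew on this same comparison, nothing is read from these shares.

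**Figure D1:**
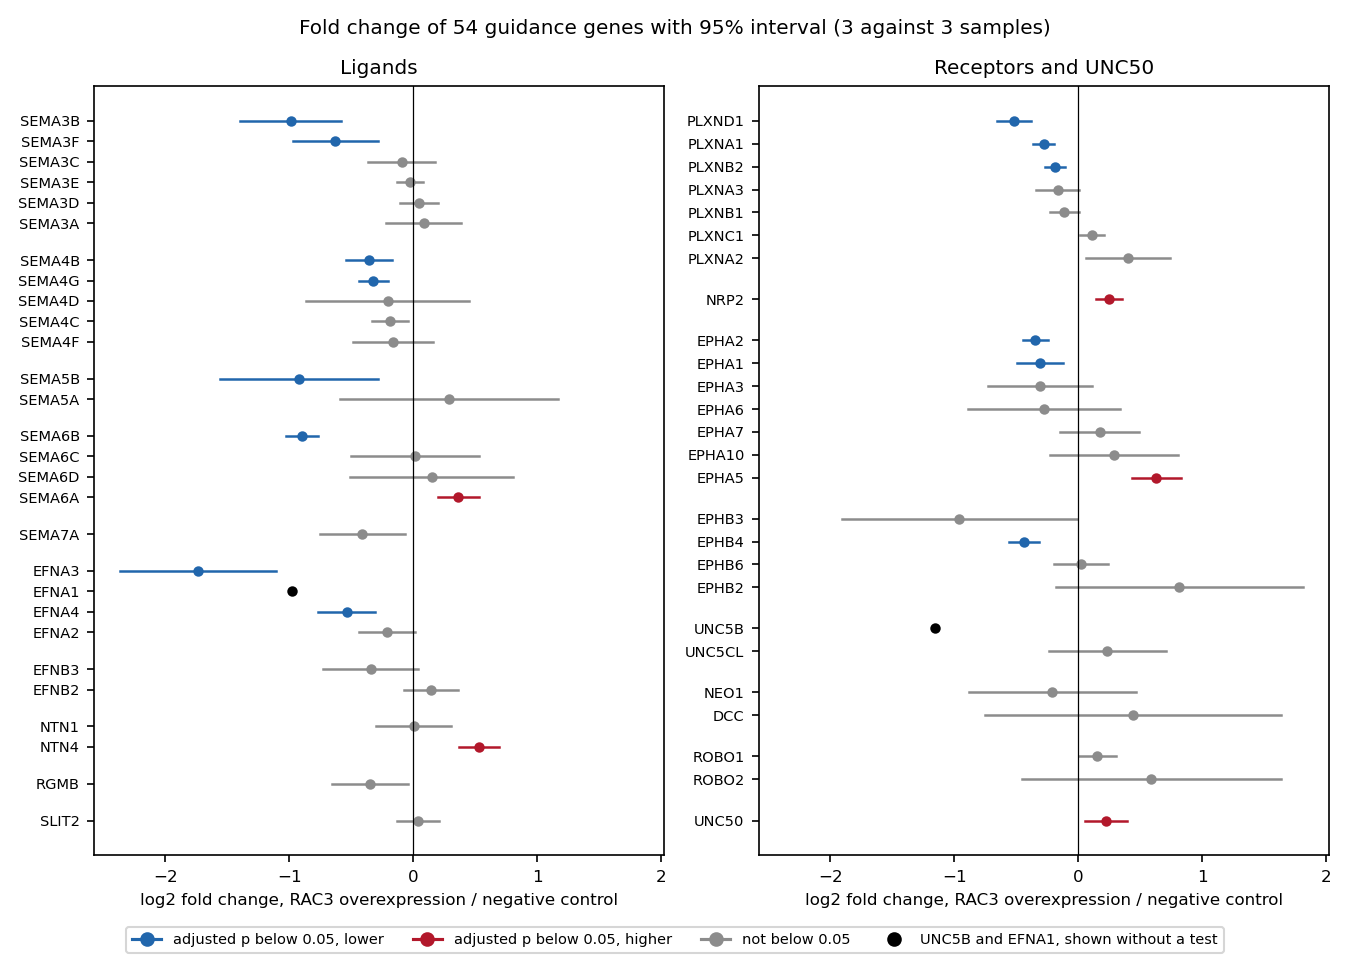
Log2 fold change (x axis) of the 54 tested guidance genes (y axis, grouped by family) for RAC3 overexpression over negative control, n = 3 each, with 95% intervals as bars. Blue and red mark genes with an adjusted p below 0.05, and UNC5B and EFNA1 are black points without an interval because they are shown without a test. EFNA3 lies furthest left.

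Expression of the family was uneven. A mean level of at least 10 FPKM was reached by 18 members, 23 lay from 1 to below 10 FPKM and 33 below 1 FPKM. Without UNC5B and EFNA1, 3 of 16 members in the highest class were called higher and 9 lower, where 16.3% and 21.6% of all tested genes in that class were. In the middle class 2 of 23 were called higher and 4 lower, where 12.2% and 10.6% of all tested genes were. In the lowest class 0 of 13 tested members were called higher and 1 lower, where 3.85% and 3.99% of all tested genes were. The median over tested members was 3.08 FPKM, beside 9.71 FPKM over all tested genes. PLXNB2, a receptor for class 4 semaphorins, had the highest level, with group means of 176 FPKM in the controls and 160 FPKM with RAC3. EPHA2, a receptor for ephrin-A ligands, followed with group means of 69.8 and 57.1 FPKM. PLXNA1 at 51.7 and 44.0 FPKM, EPHB4 at 53.6 and 41.4 FPKM and the EPHA2 ligand gene EFNA1 at 61.2 and 32.1 FPKM came next. Summed over the members without UNC5B and EFNA1, the level was 3669, 3583 and 3486 CPM in controls 1, 2 and 3 and 3186, 3144 and 3214 CPM with RAC3. The controls declined in order of their number and all lay above the RAC3 samples. PLXNB2 alone held 29.1% to 30.5% of the summed CPM of all members in each sample. The sum therefore follows the few genes with the most counts and does not describe the family gene by gene.

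**Figure D2:**
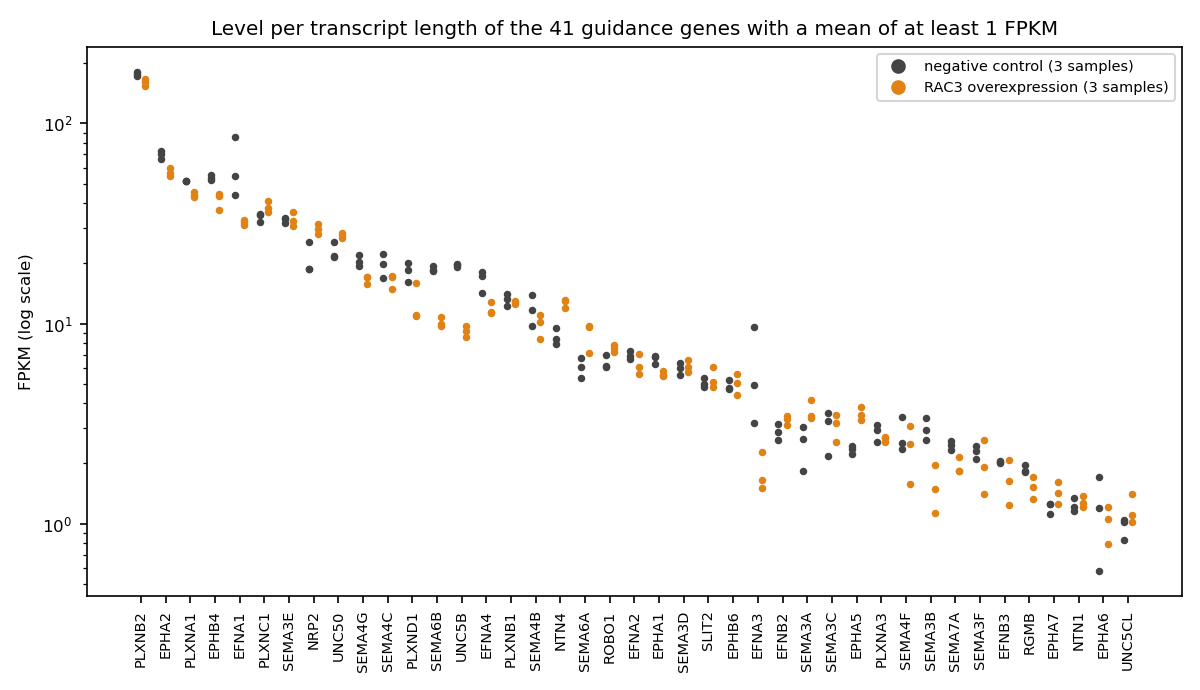
Level in each of the 6 samples (FPKM on a log axis) of the 41 guidance genes with a mean of at least 1 FPKM, ordered by that mean, with controls and RAC3 samples in separate colours. PLXNB2 is the most abundant member, and EPHA2, PLXNA1, EPHB4 and EFNA1 follow.

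Promoter sequence, which the symbol rule did not use, was compared across the members. RefSeq promoters (GRCh38.p14, the 250 bases before the start) matched 65 members, and EFNB3, EPHA10, NTN1, NTN3, SEMA3A, SEMA6A, SEMA6B, UNC5B and UNC5D had no entry. The GC box letters GGGCGG were searched on both strands, where the reverse strand reads CCGCCC and matches may share a base. At least 1 match lay in 48 of the 65 promoters (73.8%), beside 42.6% of all 35116 promoters of that length. For the members only the first entry of each gene was kept, whereas the 35116 promoters count every entry. The shares and the medians that follow are therefore not strictly comparable. The median guanine and cytosine content was 65.6% for the promoters of the members and 58.0% for all promoters. EFNA4 and the readthrough gene EFNA4-EFNA3 have the same promoter, and counted once 47 of 64 (73.4%) hold a match. EFNA1 has 5 matches, and without it matches were in 11 of the 13 members called lower that had a promoter (84.6%), in 3 of the 4 called higher, in 19 of the 29 tested but not called (65.5%) and in 14 of the 18 not tested (77.8%). A match is a description of letters and not of a bound site. Shown are the neighbouring ligand genes EFNA4 (chr1:155063490-155063739, plus strand) and EFNA3 (chr1:155078587-155078836, plus strand), which were lower, and SEMA3F (chr3:50154808-50155057, plus strand), which was lower and has the most matches. EPHA5 (chr4:65670490-65670739, minus strand) and NTN4 (chr12:95791156-95791405, minus strand) are shown as members that were higher. The promoters not printed include NRP2, called higher, with 3 matches and SEMA3B and SEMA5B, called lower, with 0. Each is written 5′ to 3′ with the matches in capitals, of which EFNA4 and EFNA3 hold 2 each, SEMA3F 12, EPHA5 1 and NTN4 0.
EFNA4: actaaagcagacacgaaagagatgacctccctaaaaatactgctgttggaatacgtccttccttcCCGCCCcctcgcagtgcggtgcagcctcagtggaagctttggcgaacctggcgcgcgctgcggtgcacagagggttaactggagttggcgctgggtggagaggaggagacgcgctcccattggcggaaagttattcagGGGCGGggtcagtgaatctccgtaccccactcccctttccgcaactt
EFNA3: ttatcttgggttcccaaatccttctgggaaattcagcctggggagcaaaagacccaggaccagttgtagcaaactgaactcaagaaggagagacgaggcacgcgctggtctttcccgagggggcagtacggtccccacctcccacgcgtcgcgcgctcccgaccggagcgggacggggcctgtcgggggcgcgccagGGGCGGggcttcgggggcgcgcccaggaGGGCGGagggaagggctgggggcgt
SEMA3F: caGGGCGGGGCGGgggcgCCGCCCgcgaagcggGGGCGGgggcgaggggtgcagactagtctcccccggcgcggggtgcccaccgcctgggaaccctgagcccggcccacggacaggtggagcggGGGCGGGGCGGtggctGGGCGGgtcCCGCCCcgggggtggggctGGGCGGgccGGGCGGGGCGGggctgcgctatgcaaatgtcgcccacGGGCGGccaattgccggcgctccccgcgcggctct
EPHA5: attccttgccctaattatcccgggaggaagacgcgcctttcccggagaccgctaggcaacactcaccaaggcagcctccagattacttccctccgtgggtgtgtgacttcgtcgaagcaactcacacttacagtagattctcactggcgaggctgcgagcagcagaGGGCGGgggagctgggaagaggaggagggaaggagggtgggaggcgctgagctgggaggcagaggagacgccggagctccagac
NTN4: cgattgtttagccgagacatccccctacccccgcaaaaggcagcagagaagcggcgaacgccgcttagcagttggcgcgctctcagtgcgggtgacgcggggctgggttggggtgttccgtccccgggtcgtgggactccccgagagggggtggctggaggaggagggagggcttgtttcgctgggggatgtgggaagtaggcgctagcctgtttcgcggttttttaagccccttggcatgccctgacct

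Among the ligands, 28 of 38 genes were tested. Without EFNA1, 2 of 27 (7.41%) were called higher and 8 (29.6%) lower, beside 13.3% and 15.3% of all tested genes, with a median log2 fold change of −0.19. The ephrin-A genes encode membrane-anchored ligands of EPHA receptors, and EFNA3 had the largest decrease of all tested ligands. EFNA3 stood at 18.0, 9.12 and 5.85 CPM in controls 1, 2 and 3 and at 2.93, 4.07 and 2.70 CPM with RAC3. Groups were separate, but control 1 was far above the other controls, and the coefficient of variation (SD over mean) of the controls was 57.1%, where its median over called members was 5.51%. The log2 fold change of EFNA3 was −1.74 (SE 0.300, adjusted p 0.00027), and without control 1 it was −1.20. EFNA1, the ligand for EPHA2 and other EPHA receptors, showed the same order of controls, with 136, 86.4 and 68.7 CPM in the controls and 47.0, 49.2 and 50.2 CPM with RAC3. All controls lay above the RAC3 samples, and control 1 again stood apart. The log2 fold change of EFNA1 was −0.98, and −0.67 without control 1. EFNA4 followed with 23.1, 21.6 and 17.7 CPM in the controls and 13.7, 15.5 and 13.5 CPM with RAC3. Its groups did not overlap and its log2 fold change was −0.54 (SE 0.110, adjusted p 0.0012). EFNA2 was not called at a log2 fold change of −0.21 (adjusted p 0.156). EFNB2, the most abundant ephrin-B gene, stood at 13.5, 15.9 and 14.6 CPM in the controls and at 16.2, 15.3 and 17.02 CPM with RAC3, and the groups overlapped (adjusted p 0.343). The ephrin-B genes encode transmembrane ligands of EPHB receptors, and 2 of them were tested. They had 0 calls by edgeR, DESeq2 and limma-voom, and 0 at an unadjusted p below 0.05. Over all tested genes edgeR called 13.3% higher and 15.3% lower, so little can be read from 2 genes.

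EFNA4, EFNA3 and EFNA1 lie in this order within 71.1 kb on chromosome 1, all on the plus strand. Neighbouring genes on that chromosome, looked up after the values had been seen, included 4 that were tested and 0 that were called by edgeR. ADAM15, next to EFNA4, had a log2 fold change of −0.15 (adjusted p 0.0675), and SLC50A1, next to EFNA1, had −0.13 (adjusted p 0.13). DPM3 and KRTCAP2 were not called, and the unadjusted p was below 0.05 only for ADAM15.

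Semaphorins are secreted or membrane-bound ligands of plexins and neuropilins. SEMA6B, a transmembrane semaphorin, had the smallest adjusted p among members other than UNC5B. It stood at 62.7, 65.1 and 62.7 CPM in the controls and at 34.0, 34.2 and 33.8 CPM with RAC3. Both groups were tight and lay far apart, with a log2 fold change of −0.90 (SE 0.0617, adjusted p 8.5e-09). The related SEMA6A moved the other way, from 32.5, 36.2 and 33.8 CPM in the controls to 47.9, 38.8 and 45.04 CPM. RAC3 sample 2 came closest to the controls and the groups did not overlap, with a log2 fold change of 0.36 (adjusted p 0.0022).

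The secreted class 3 semaphorins, which signal through neuropilins and plexins, had 2 of 6 tested genes called lower and 0 called higher by edgeR, DESeq2 and limma-voom, with 0 higher at an unadjusted p below 0.05, beside 15.3% lower and 13.3% higher of all tested genes. SEMA3B was at 8.60, 6.66 and 7.64 CPM in the controls and at 4.78, 3.76 and 2.84 CPM with RAC3. All controls lay above all RAC3 samples, and the log2 fold change was −0.99 (SE 0.194, adjusted p 0.00082). SEMA3F, whose promoter is printed above, was at 6.95, 7.06 and 7.19 CPM in the controls and at 4.16, 4.55 and 5.04 CPM with RAC3. Again all RAC3 samples were the lower ones, with a log2 fold change of −0.63 (SE 0.165, adjusted p 0.0075). In FPKM, however, the SEMA3F group means were 2.28 and 1.98 and the groups overlapped. The ratio of RAC3 to control means was 0.649 in CPM and 0.869 in FPKM for SEMA3F, and 1.19 and 1.41 for NRP2. The sources used here do not say how the lengths behind the FPKM were set, and the cause of this difference was not tested. With limma on log2 FPKM the log2 fold change of SEMA3F was −0.23 at an adjusted p of 0.489, the largest over all settings, where the smallest was 0.00396. SEMA3E was the most abundant class 3 member, with 181, 194 and 186 CPM in the controls and 196, 171 and 183 CPM with RAC3. Its groups overlapped (adjusted p 0.735). SEMA3F and SEMA3B lie within 122502 bases on chromosome 3. Of the genes between them, which were looked up after the values had been seen, the amino acid transporter SLC38A3 was called lower at a log2 fold change of −0.89 and the G protein subunit GNAI2 at −0.21. RBM5, an RNA-binding protein gene before SEMA3F, was called higher at 0.19. MON1A, RBM6, IFRD2 and HYAL3 nearby were not called, and GNAT1 and LSMEM2 were not tested.

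Among the class 4 semaphorins, transmembrane ligands of plexins, 2 of 5 tested genes were called lower and 0 higher by edgeR, DESeq2 and limma-voom, with 0 higher at an unadjusted p below 0.05, beside 15.3% lower and 13.3% higher of all tested genes. SEMA4G stood at 94.7, 94.96 and 89.0 CPM in the controls and at 76.1, 76.2 and 70.0 CPM with RAC3. SEMA4B stood at 47.7, 40.3 and 37.4 CPM in the controls and at 29.7, 31.8 and 36.2 CPM with RAC3. Neither gene had overlapping groups, although RAC3 sample 3 and control 3 nearly met for SEMA4B and its FPKM groups overlapped. The log2 fold changes were −0.32 for SEMA4G (adjusted p 0.000298) and −0.36 for SEMA4B (adjusted p 0.0058). The SEMA4B call was lost with a GC trend removed, at −0.18, and with limma on log2 FPKM, at −0.25 (adjusted p 0.255, range 0.00044 to 0.255 over all settings). SEMA4C was not called at −0.19 (adjusted p 0.0515), although its CPM groups did not overlap. It was called lower with either other filter and with a length trend removed, at −0.19 each. Without control 3 and without RAC3 sample 2 it was also called lower, at −0.23 and −0.24. SEMA5B, a transmembrane semaphorin near the limit of detection, had 31, 41 and 36 counts in the controls and 23, 20 and 16 counts with RAC3. At 2.22, 2.73 and 2.01 CPM against 1.29, 1.21 and 1.13 CPM its groups did not overlap. Its log2 fold change was −0.92 (SE 0.305, adjusted p 0.029), and the adjusted p ran from 0.0128 to 0.317 over all settings. The call on SEMA5B was lost in DESeq2 and on leaving out any of 5 of the 6 libraries, for instance at 0.0544 without control 1 and 0.118 without control 2, while the log2 fold change stayed between −1.03 and −0.79. With limma on log2 FPKM the SEMA5B log2 fold change was −0.44 and the call was lost at the upper end of that range, and its FPKM groups overlapped. SEMA7A, a ligand anchored to the membrane by a lipid, stood at 7.31, 6.66 and 7.19 CPM in the controls and at 4.84, 5.04 and 6.10 CPM with RAC3. Its groups did not overlap, but the log2 fold change of −0.41 was not called (adjusted p 0.0666, range 0.0494 to 0.307 over all settings), except without RAC3 sample 3 at −0.51.

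Netrins are secreted ligands of DCC and UNC5 receptors. NTN1, the ligand of UNC5B in the dependence receptor pathway, stood at 7.45, 8.12 and 7.03 CPM in the controls and at 7.09, 8.08 and 7.45 CPM with RAC3. Its groups overlapped fully, with a log2 fold change of 0.0027 (adjusted p 0.99). NTN4, a more distant netrin that binds laminins, stood at 26.4, 30.6 and 31.9 CPM in the controls and at 41.7, 43.5 and 43.4 CPM with RAC3. All RAC3 samples lay above the controls, with a log2 fold change of 0.53 (SE 0.0766, adjusted p 4.8e-05). NTN3 and NTN5 were too low to test, with at most 3 and 7 counts in a sample. RGMA had at most 2 counts in a sample. RGMB, a membrane-anchored ligand of neogenin, stood at 9.03, 8.26 and 8.31 CPM in the controls and at 6.64, 7.53 and 5.82 CPM with RAC3. The groups did not overlap, and its log2 fold change of −0.35 was not called (adjusted p 0.0843). SLIT2, a ligand of ROBO receptors, overlapped between the groups at 36.8, 36.3 and 35.3 CPM in the controls and 41.8, 34.3 and 34.7 CPM with RAC3 (adjusted p 0.771).

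Among the receptors, counting UNC5CL, 25 of 35 genes were tested. Without UNC5B, 2 of 24 (8.33%) were called higher and 6 (25.0%) lower, beside 13.3% and 15.3% of all tested genes, with a median log2 fold change of −0.0435. UNC5B (ENSG00000107731, chr10:71212570-71302864 on GRCh38) stood at 138, 135 and 130.4 CPM in controls 1, 2 and 3 and at 56.3, 64.0 and 61.1 CPM with RAC3. The values within each group were close together and the groups lay far apart, with means of 134 ± 3.81 CPM and 60.5 ± 3.87 CPM (SD, n = 3 each). In FPKM the group means were 19.5 and 9.15, and the log2 fold change from the counts was −1.15. The other UNC5 genes were near 0: UNC5A had 0, 0 and 0 counts in the controls and 0, 1 and 2 with RAC3. UNC5C had 0, 2 and 0 counts in the controls and 0, 3 and 0 with RAC3, and UNC5D had none in any sample. UNC5B was thus the only UNC5 receptor gene measurable at this depth. UNC5CL stood at 2.72, 3.33 and 3.23 CPM in the controls and at 3.38, 4.37 and 3.19 CPM with RAC3, and overlapped (adjusted p 0.471).

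DCC, the attractive netrin receptor, had 1, 15 and 10 counts in the controls and 12, 8 and 16 counts with RAC3. Its relative NEO1, a receptor for netrins and repulsive guidance molecules, had 21, 28 and 29 counts in the controls and 28, 27 and 15 with RAC3. Both overlapped between the groups and neither was called (adjusted p 0.606 and 0.672). edgeR, DESeq2 and limma-voom each called 0 of this pair, with 0 at an unadjusted p below 0.05. Over all tested genes edgeR called 13.3% higher and 15.3% lower. Below 1 FPKM, where both genes lie, the shares were 3.85% and 3.99%. ROBO1, a SLIT receptor, stood at 39.5, 44.4 and 40.1 CPM in the controls and at 49.1, 44.5 and 44.2 CPM with RAC3. Control 2 lay among the RAC3 samples and the gene was not called (log2 fold change 0.15, adjusted p 0.113). Of the ROBO genes 0 were called by edgeR, DESeq2 and limma-voom, with ROBO1 higher at an unadjusted p below 0.05, and scaling by library size called ROBO1 higher at 0.21 (adjusted p 0.0326, range 0.0326 to 0.369 over all settings). SLIT genes had 0 calls by any of the 3 tools and 0 at an unadjusted p below 0.05, and over all tested genes edgeR called 13.3% higher and 15.3% lower.

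Plexins are the main semaphorin receptors, and several of them act on small GTPases directly. Of the 7 tested plexin genes, 3 were called lower and 0 higher by edgeR, DESeq2 and limma-voom, with 2 higher at an unadjusted p below 0.05, beside 15.3% lower and 13.3% higher of all tested genes. With a length trend removed 5 plexin genes were lower, beside 15% of all tested genes, with PLXNA3 at −0.24 and PLXNB1 at −0.17 new. With scaling by library size 2 were higher, PLXNA2 at 0.46 and PLXNC1 at 0.17, beside 20.2% of all tested genes. PLXND1, a receptor for class 3 semaphorins, stood at 85.8, 87.6 and 73.9 CPM in the controls and at 57.9, 54.96 and 59.9 CPM with RAC3. The groups did not overlap, with control 3 the lowest control and a log2 fold change of −0.52 (adjusted p 1.4e-05). PLXNA1, which forms receptors with neuropilins, stood at 484, 487 and 483 CPM in the controls and at 388, 398 and 413 CPM with RAC3. The controls were nearly equal and all above the RAC3 samples, with a log2 fold change of −0.28 (adjusted p 3.5e-05). PLXNB2 stood at 1191, 1106 and 1085 CPM in the controls and at 1003, 967 and 999.7 CPM with RAC3. Its groups lay close together without overlap, and the log2 fold change was −0.19 (adjusted p 0.0016). With a GC trend removed the direction of PLXNB2 turned to 0.0068 (adjusted p 0.917, range 7.6e-05 to 0.917 over all settings), and with limma on log2 FPKM the call was lost at −0.14 (adjusted p 0.0673). NRP2, a co-receptor for class 3 semaphorins, moved the other way, from 96.2, 101.3 and 94.1 CPM to 116, 115 and 115 CPM. All RAC3 samples lay above the controls, with a log2 fold change of 0.25 (adjusted p 0.0012), and limma on log2 FPKM gave 0.51 for the same gene.

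EPH receptors are tyrosine kinases that bind ephrins on neighbouring cells. EPHA2, the most abundant of them, stood at 296, 266 and 281 CPM in the controls and at 211, 221 and 231 CPM with RAC3. All controls lay above the RAC3 samples, with a log2 fold change of −0.35 (adjusted p 3.2e-05). EPHB4, the receptor of ephrin-B2, stood at 247, 234 and 230.2 CPM in the controls and at 155, 188 and 183 CPM with RAC3. RAC3 sample 1 was the lowest and the groups did not overlap, with a log2 fold change of −0.44 (adjusted p 2.3e-05). EPHA1 stood at 23.6, 21.2 and 22.9 CPM in the controls and at 18.8, 18.0 and 17.7 CPM with RAC3. Its groups did not overlap either, with a log2 fold change of −0.31 (adjusted p 0.013). The EPHA1 call was lost with a GC trend removed, at −0.15 (adjusted p 0.222, the largest over all settings, where the smallest was 0.0109), and with limma on log2 FPKM, at −0.25 (adjusted p 0.11). EPHA5, a receptor best known in the nervous system, was the only member past the thresholds of the study in the higher direction, at 15.8, 14.9 and 13.8 CPM in the controls and 23.7, 22.8 and 22.1 CPM with RAC3. All RAC3 samples lay above all controls, with a log2 fold change of 0.63 (SE 0.0933, adjusted p 6.1e-05). EPHA5 slipped below the 1.5-fold threshold with a GC or length trend removed, with limma on log2 FPKM and without control 3, where the number of members higher by that rule was 0. EPHB3 passed the thresholds of the study as lower, but its values overlapped, with 3.65, 0.799 and 2.23 CPM in the controls and 0.788, 0.789 and 1.92 CPM with RAC3 (adjusted p 0.123). EPHB3 was called lower at −1.36 without control 2 and at −1.48 without RAC3 sample 3. UNC50 was called higher at a log2 fold change of 0.22 (adjusted p 0.041, range 0.0119 to 0.177 over all settings), and lost the call in DESeq2, in a fit with a term for the replicate number and on leaving out any of 5 of the 6 libraries.

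**Figure D3:**
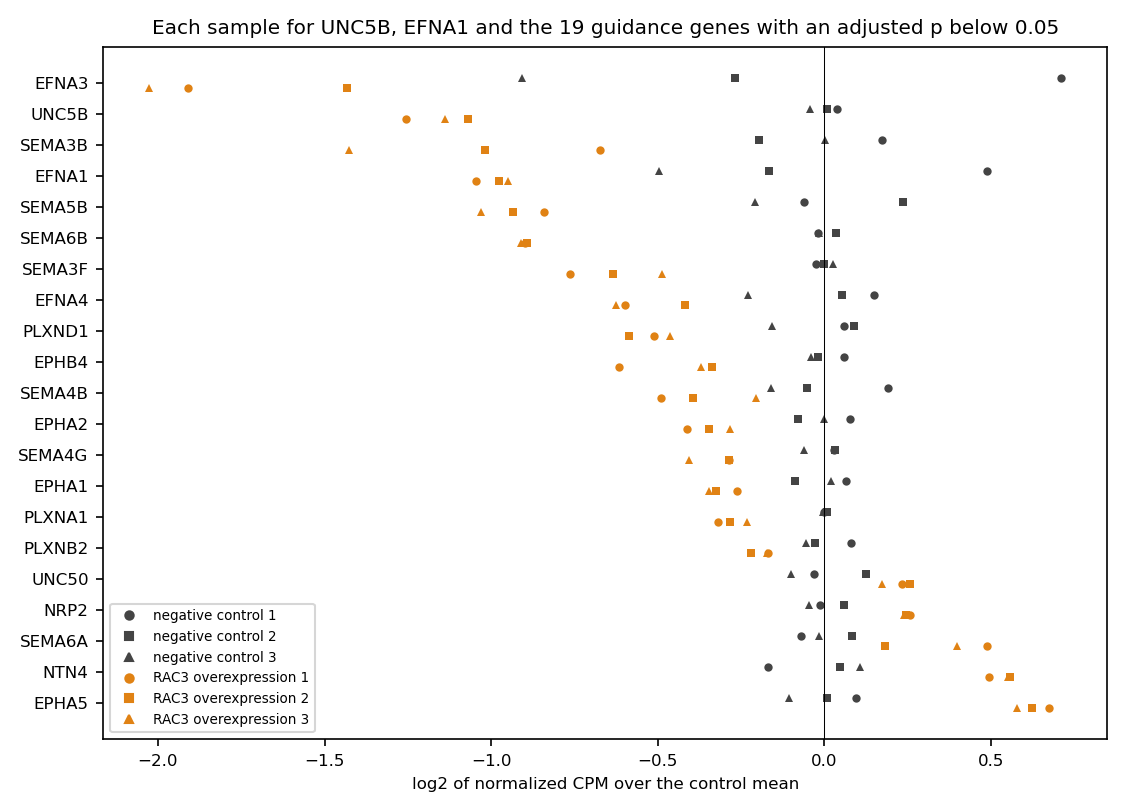
Level of UNC5B, EFNA1 and the 19 called guidance genes in each sample, as log2 of CPM over the control mean (x axis). For all 21 genes the RAC3 samples lie on a single side of the control samples, and the controls of EFNA3 and EFNA1 are the most spread.

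Base composition moved with the result. Guanine and cytosine content (GC) was taken from the longest transcript of each gene in GENCODE release 29. Over all tested genes, those called higher had a median transcript GC of 41.5% and those called lower 58.2%. Among members the medians were 47.9% for those called higher and 61.5% for those called lower, without UNC5B and EFNA1. Of the 20 tested members with at least 60% GC, again without UNC5B, 11 were called lower and 0 higher, and 37.1% of all 2032 tested genes in that class were called lower and 1.48% higher. Of the 20 members below 50% GC, 0 were called lower and 4 higher, where 4.8% of all tested genes in that class were called lower and 22.0% higher. The median log2 fold change of these members with at least 60% GC was −0.35, beside −0.19 for all genes of that class. Across genes, which are not independent replicates and share these 6 libraries, the Spearman correlation between GC and log2 fold change was −0.553 over the 52 members without UNC5B and EFNA1 and −0.517 over 12863 genes. The part of base composition in the decreases was not tested beyond a fit with a GC trend removed.

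In that fit, without UNC5B and EFNA1, 5 of 52 members were called higher and 10 lower, where 9.87% of all tested genes were called higher and 10.8% lower, and 13 of the 19 calls were kept. Besides PLXNB2, SEMA4B and EPHA1, the lost calls were those on SEMA3F at −0.44, SEMA5B at −0.75 and UNC50 at 0.21, where UNC50 stayed between 0.17 and 0.29 over all settings. PLXNA2 at 0.48 and SEMA3E at −0.19 were newly called. Values that shrank by more than 1.5 times but kept their call were those of EPHB4 at −0.25, EPHA2 at −0.18, PLXNA1 at −0.10, PLXND1 at −0.32 and SEMA4G at −0.19. With a GC trend removed UNC5B stood at −0.99, SEMA6B at −0.66, EFNA1 at −0.83, EFNA3 at −1.55 and SEMA3B at −0.77.

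**Figure D4:**
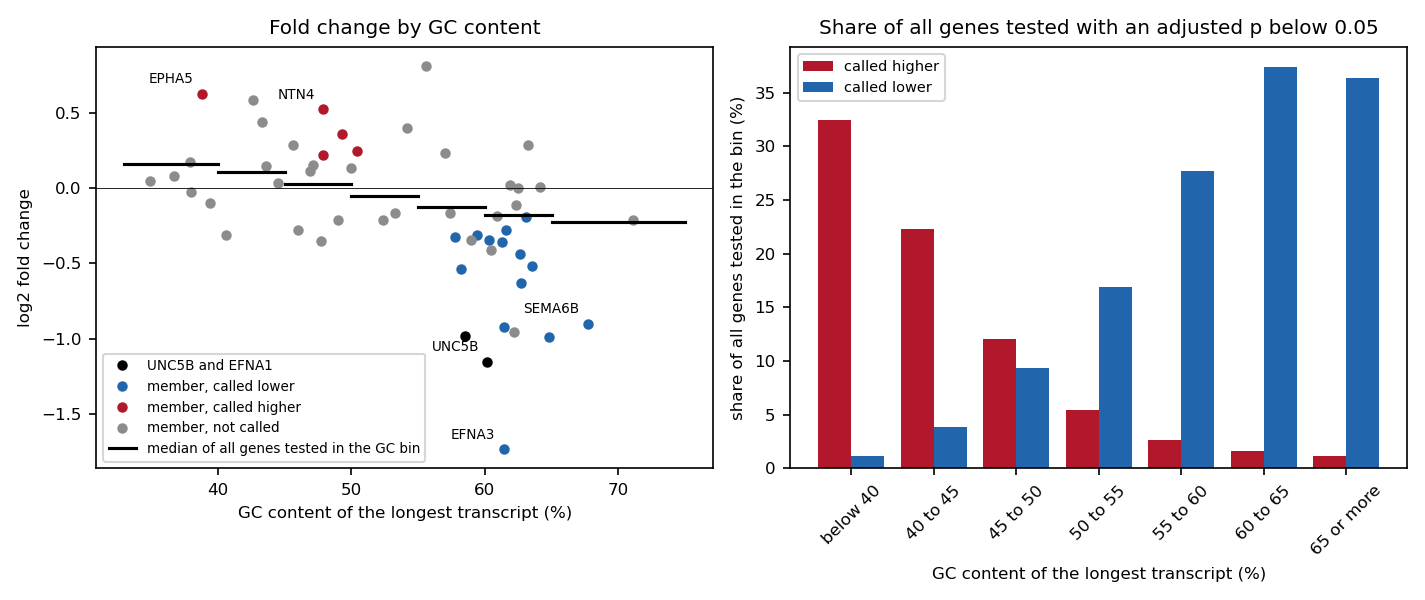
Left, GC content of the longest transcript (%) and log2 fold change of the 54 tested members (points), with the median of all tested genes in each GC bin as lines. Right, percentage of all tested genes called higher (red) or lower (blue) in the same bins, as bars from 0, and UNC5B and EFNA1 are black. The share called higher is largest in the lowest bin, and the share called lower is largest in the bins from 60% GC.

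Some members share bases with another gene, and since the strand of the libraries was not stated, reads there cannot be told apart. Exons of RGMB overlap an antisense gene over 2682 bases and those of EFNB2 another over 1313, and those of UNC5CL overlap OARD1 on the same strand over 747. Exons of SEMA4G overlap those of MRPL43 over 1170 bases, EPHA5 those of its antisense gene over 535, SEMA6A those of its antisense gene over 268 and NRP2 those of a neighbour over 147. Overlaps of 110 bases for SEMA3F, 82 for EPHA1 and 69 for EPHB4 were shorter. EFNA3 and EFNA4 share exons with the readthrough gene EFNA4-EFNA3, to which 0 counts were assigned.

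Intracellular proteins that act downstream of guidance receptors formed a separate list of 68 genes, of which 63 were tested. Of these, 5 (7.94%) were called higher (ROCK2, SRGAP1, DPYSL3, ITSN1 and ABLIM1) and 16 (25.4%) lower, beside 13.3% and 15.3% of all tested genes, with a median log2 fold change of −0.05. MICAL2, an enzyme of the MICAL family that oxidizes actin, had the smallest adjusted p of the list. It stood at 1324.5, 1298 and 1283 CPM in the controls and at 1037, 1051 and 1072 CPM with RAC3. The groups did not overlap, with a log2 fold change of −0.31 (adjusted p 4.2e-06). The SLIT-ROBO GTPase-activating protein SRGAP1 stood at 98.3, 99.1 and 100.1 CPM in the controls and at 118, 112 and 119 CPM with RAC3. All RAC3 samples were above the controls, with a log2 fold change of 0.23 (adjusted p 0.0020). It was 0.13 with a GC or a length trend removed. The call was lost with limma on log2 FPKM (adjusted p 0.0504, range 0.000312 to 0.0504 over all settings). SRGAP1 group means in FPKM were 9.40 in the controls and 11.5 with RAC3, so the difference itself was still present there. The genes called lower also held the kinases SRC, FYN and PAK1 and the small GTPase RHOD.

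Proteins linked to the death signal of dependence receptors formed a list of 11 genes, of which 10 were tested and MAGED1 was not. DAPK1, a death-associated kinase that binds UNC5 receptors, stood at 294, 299 and 278 CPM in the controls and at 258, 256 and 251 CPM with RAC3. It was lower in all RAC3 samples, with a log2 fold change of −0.19. CIP2A, an inhibitor of the phosphatase PP2A, stood at 36.5, 46.0 and 39.2 CPM in the controls and at 51.8, 46.9 and 51.8 CPM with RAC3. Its RAC3 samples lay above the controls, at a log2 fold change of 0.31. The initiator caspase gene CASP9 had a log2 fold change of 0.25 and the PP2A scaffold gene PPP2R1B one of 0.20. Of the 10 tested genes edgeR thus called 3 higher and 1 lower, beside 13.3% and 15.3% of all tested genes, and DESeq2 called 2 higher and 1 lower. The number higher was 5 with scaling by library size, where 20.2% of all tested genes were higher. It was 2 with a replicate block, with a GC or length trend removed and without any single library other than RAC3 sample 3. In these fits 8.93% to 13.4% of all tested genes were higher. Without RAC3 sample 3 it was 1, beside 9.37% of all tested genes. The number lower was 0 with limma on log2 FPKM, beside 6.63% of all tested genes.

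Other guidance cues and co-receptors formed a list of 32 genes, of which 23 were tested. edgeR called 7 (30.4%) lower and 0 higher, beside 15.3% and 13.3% of all tested genes. In the higher direction DESeq2 called 0 higher, limma-voom called 1 higher (ADGRL2) and 2 were higher at an unadjusted p below 0.05. L1CAM, an adhesion molecule of growing axons, stood at 44.6, 43.0 and 41.0 CPM in the controls and at 23.4, 21.6 and 24.8 CPM with RAC3. The groups lay far apart, with a log2 fold change of −0.88 (adjusted p 1.2e-07). VANGL2, a planar cell polarity protein, stood at 14.7, 16.7 and 14.4 CPM in the controls and at 10.6, 8.32 and 10.4 CPM with RAC3. It was lower in all RAC3 samples, with a log2 fold change of −0.64 (adjusted p 0.00068). The Hedgehog receptor gene PTCH1 had a log2 fold change of −0.60 (adjusted p 0.0015). Its FPKM groups overlapped, and with limma on log2 FPKM the call was lost at −0.50 (adjusted p 0.271, range 0.000309 to 0.271 over all settings). DSCAML1, GPC1, RTN4R and ADGRL1 were the others called lower, at −0.58, −0.50, −0.50 and −0.32.

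**Figure D5:**
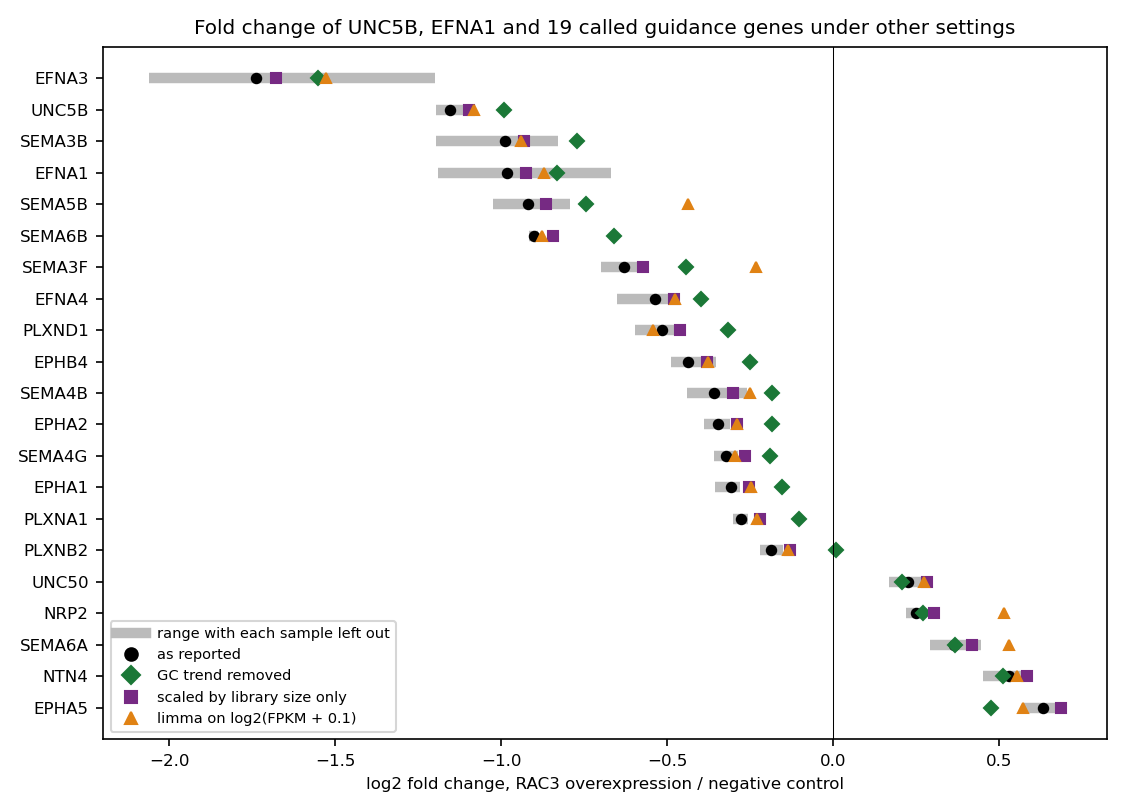
Log2 fold change of UNC5B, EFNA1 and the 19 called guidance genes (x axis) as reported, with a GC trend removed, scaled by library size only and with limma on log2 FPKM (points), and with each sample left out (grey range). UNC5B, SEMA6B, EFNA1 and EFNA3 stay below 0 throughout, and PLXNB2 is at 0.0068 with a GC trend removed.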

How the data were processed

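The authors deposited 1 table with gene counts and FPKM for 6 samples, and both were used as given. Their processing notes list Bowtie2 2.2.8, HISAT2, StringTie 1.3.1 and DESeq2. Libraries were poly(A) selected, made with NEBNext Ultra and sequenced on a NovaSeq instrument. The genome build and annotation behind the table, and the strand protocol, are not given in the sources used here. Genes were filtered with filterByExpr of edgeR, scaled by TMM and tested with the two-sided quasi-likelihood F test of edgeR 4.0.16 in R 4.3.3, with Benjamini-Hochberg adjustment over all tested genes. DESeq2 1.42.0 and limma 3.58.1 were used as alternatives. Members described by their values are all UNC5, netrin, DCC, NEO1 and repulsive guidance molecule genes, members that were called at a mean count of 10 or more, the most abundant gene of each family, and EFNA2 and EPHB3 beside them. SEMA4C, PLXNA2, PLXNA3, PLXNB1 and PLXNC1, which were called only under other settings, are also given. Positions, transcript length and GC came from GENCODE release 29. The members and lists were chosen with earlier results of these data known. Promoter letters, neighbouring genes and classes of GC content were looked at after the values had been seen.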

Additional observations from a re-analysis of the deposited data

How the results depend on the processing

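The 17 other settings were leaving out each of the 6 libraries, other filters, scaling by DESeq2 size factors, upper quartile or library size, DESeq2, limma-voom, a replicate block, GC and length trends, and limma on log2 FPKM, which was chosen after the data had been seen. With the replicate block, 18 of the 19 member calls besides UNC5B and EFNA1 were shared and UNC50 was lost (adjusted p 0.0542). Counts of members lower by the thresholds of the study include UNC5B and EFNA1 below. Both were known as lower beforehand, so nothing is read from those counts. Scaling by library size gave 8 members higher in place of 5, 10 intracellular genes higher in place of 5 and 2 other guidance genes higher in place of 0, and over all genes 2613 higher and 1381 lower in place of 1717 and 1974. With limma on log2 FPKM 1304 of all tested genes (10.1%) were higher and 858 (6.63%) lower. That fit gave 3 intracellular genes higher and 8 lower in place of 5 and 16. It gave 1 other guidance gene higher and 3 lower in place of 0 and 7, and 5 members lower by the thresholds of the study in place of 8. limma-voom gave 1 other guidance gene higher, where 13% of all tested genes were higher. Members higher by the thresholds of the study were 0 with a GC trend removed, 0 with a length trend removed and 0 with limma on log2 FPKM, in place of 1. Leaving out 1 library gave 4 to 5 members higher and, without UNC5B and EFNA1, 13 to 16 lower. It gave 4 to 5 intracellular genes higher and 12 to 17 lower, and 0 other guidance genes higher and 6 to 8 lower. Of all tested genes 8.93% to 11.7% were higher and 11.2% to 13.7% lower in these fits. By the thresholds of the study 0 to 2 members were higher and 6 to 9 lower. Under this rule 1.68% of all tested genes were higher and 2.99% lower in the reported fit, and the shares in the fits with 1 library left out are not given. Log2 fold changes near 0 turned their sign: NTN1 to −0.0016 with only genes without a count removed, −0.00075 with at least 10 counts and −0.034 with a length trend removed (and 0.19 without a change of sign with a GC trend removed), PLXNB2 to 0.0068 with a GC trend removed, SEMA3E to 0.029 with library size scaling and 0.014 with limma on log2 FPKM (and −0.19 without a change of sign with a GC trend removed), and SLIT2 to −0.032 with a GC and −0.0070 with a length trend removed. On leaving out 1 library the log2 fold change of NTN1 ran from −0.054 to 0.055, of SEMA3E from −0.078 to 0.020, of SLIT2 from −0.065 to 0.089 and of DCC from −0.031 to 1.13. The cause of these shifts was not tested. The limits are 3 samples a group, replicates not stated to be separate cultures, genotype labels that name RAC4 and RAC5, counts of unknown strand and annotation, and a family proposed with results known.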
